A study of Mus musculus with 89 samples.

Results

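Ribosome biogenesis genes encode the machinery that makes ribosomes, not the ribosome's own proteins. A list of 32 such genes was followed through RNA-seq of mouse embryonic stem cells in which the histone variant H2A.Z.1 was the target of a degrader. Members were the rows of the deposited count table whose gene symbol was on the list. All 32 were found among 26276 rows with a gene symbol, and all 32 passed the filter on low counts. The list holds 4 genes for RNA polymerase I and its factors, 6 nucleolar chaperones and regulators, 4 box C/D and U3 proteins, 4 box H/ACA proteins, 7 small-subunit assembly factors and 7 large-subunit assembly factors.

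The 6 libraries came from V6.5 mouse embryonic stem cells of the genotype H2afz-FKBP-V, grown in LIF with the MEK inhibitor PD0325901 and the GSK3 inhibitor CHIR99021. H2afz encodes H2A.Z.1, and the FKBP-V tag, which controls and treated cells both carry, lets the dTAG molecule direct the tagged protein to degradation. There were 3 libraries labelled control and 3 labelled dTAG, and the other 83 of the 89 samples are not analysed here. Values given for the dTAG libraries are in the order of replicates 1, 2 and 3, and those for the controls likewise. The labels give neither the length nor the dose of the dTAG treatment, what the controls received, how many clones were used, or whether replicates were separate cultures, so p-values measure the spread between these libraries, which may be technical.

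RNA polymerase I copies the ribosomal DNA into a long precursor inside the nucleolus. Small nucleolar ribonucleoproteins of the box C/D class guide methylation of that precursor and those of the box H/ACA class guide its conversion of uridine to pseudouridine, while large assembly complexes cut and fold it around ribosomal proteins. Stem cells divide fast and keep large nucleoli, and many genes of this pathway are known targets of Myc family proteins, which bind the E-box CACGTG.

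The libraries differed in depth and content, and this bears on every result. The controls held 14244326, 15652795 and 14091745 counts in named genes and the 3 dTAG libraries held 12907095, 2131648 and 1812405. Of 1462 olfactory and vomeronasal receptor genes, which stem cells are not known to use, between 10.9% and 18.2% had a count in a control, and 23.5%, 71.5% and 97.0% in dTAG replicates 1, 2 and 3. The summed level of 16 pluripotency markers was 3157 to 3302 CPM (counts scaled to a library total of 1000000 in named genes) in the controls and was 3444, 2153 and 812.2 CPM in dTAG replicates 1, 2 and 3, with no marker at 0 in any library. The 11 feeder fibroblast markers summed to 46.1 to 54.2 CPM in the controls and to 46.2, 253.8 and 723.3 CPM in dTAG replicates 1, 2 and 3, with 2 or 3 of them at 0 in each control, 3 in dTAG replicate 1 and 0 in the others. Sums of the marker lists for primitive endoderm, neuroectoderm, mesoderm and trophoblast were also above every control in dTAG replicates 2 and 3. The trophoblast sum was only just above in dTAG replicate 2, at 238.3 CPM beside 236.4 CPM in the highest control. The H2afz transcript stood at 78.8, 81.9 and 95.7 CPM in control cells and at 106.6, 56.3 and 35.9 CPM under dTAG; the degrader acts on the protein, so this does not check the labels.

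The levels of the 32 genes in dTAG replicate 1 were close to those of the controls, and in dTAG replicates 2 and 3 most were lower. Summed over the list, the controls held 105.2%, 97.1% and 97.6% of their own mean (SD 4.55, n = 3). Under dTAG the same sum was 104.1%, 71.3% and 19.2% of the control mean. Thus 1 dTAG library sat inside the control range and the other two sat below it by different amounts. Levels within 25% of the control mean were held by 29 of the 32 genes in the first dTAG library, 12 in the second and 6 in the third. These sums rest on 118740 to 131196 member counts per control and on 116008, 13113 and 2999 in dTAG replicates 1, 2 and 3. In bulk RNA, fewer cells of a type and less RNA per cell cannot be told apart.

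**Figure D1:**
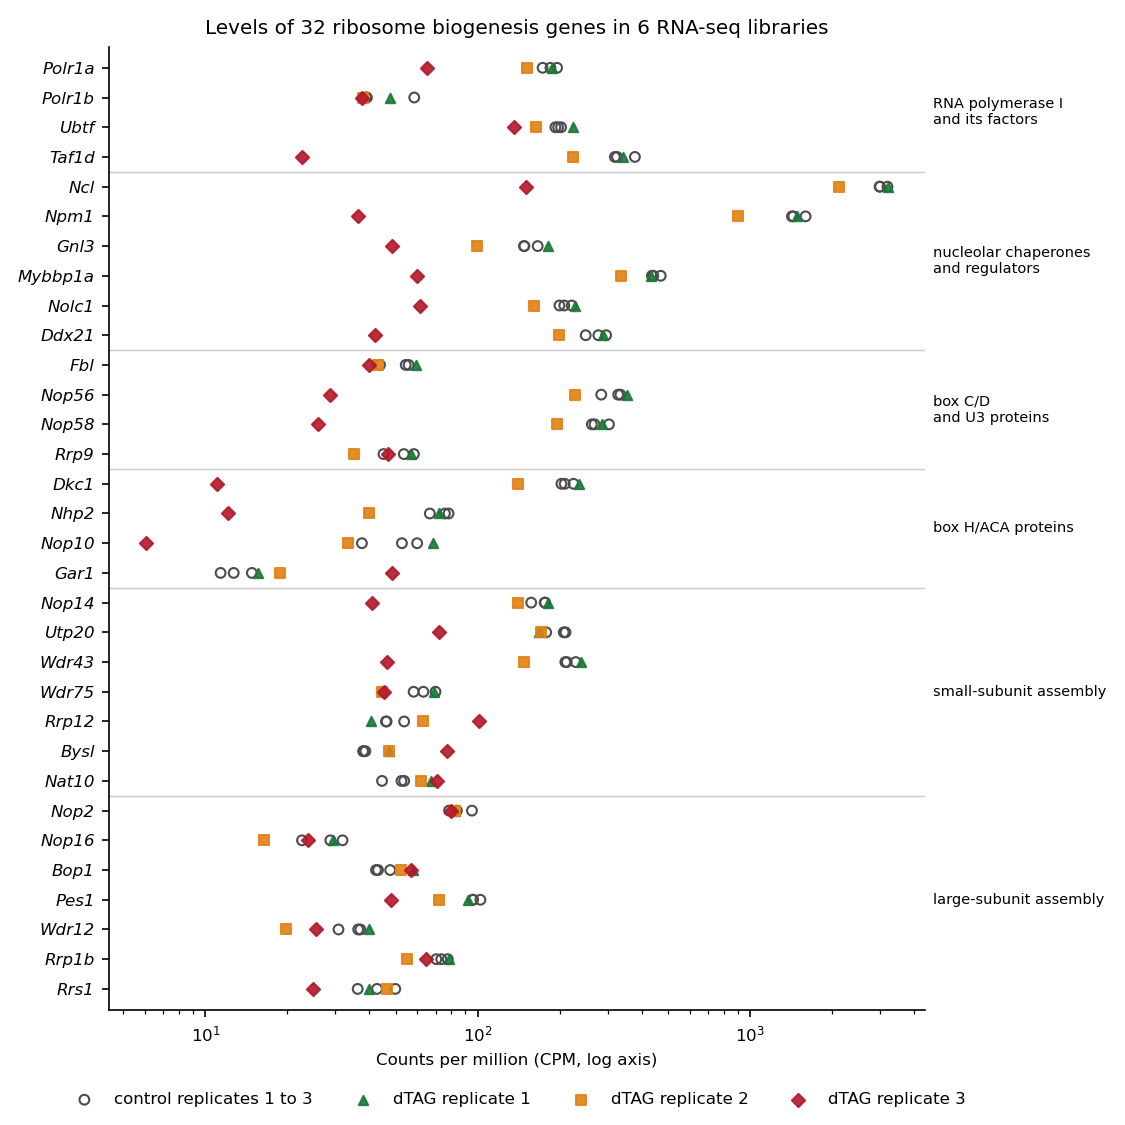
Level of each of the 32 genes in CPM (horizontal log axis) in each library, grouped by role; open circles are the 3 controls and filled symbols the 3 dTAG libraries. The triangles of dTAG replicate 1 fall among or beside the circles, and the diamonds of dTAG replicate 3 lie far to the left for Ncl, Npm1, Dkc1 and Taf1d and, on this CPM scale, to the right for Gar1, Rrp12 and Bysl.

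Across all 3 dTAG libraries against the 3 controls, no gene of the list passed the test. edgeR's quasi-likelihood test (two-sided, Benjamini-Hochberg adjustment over 18116 genes) called 0 of the 32 genes at an adjusted p under 0.05, where it called 0% of all genes. With an unadjusted p under 0.05 it gave 0 of the 32 genes, against 4202 of all genes, of which 110 were lower (0.607%). DESeq2 and limma-voom also called 0 of the 32. DESeq2 was run without the filter on low counts (25649 genes tested) and called 5196 genes of the whole table, 5180 of them higher, where edgeR without that filter called 1398. limma-voom, run with the filter, called 0. The fitted log2 difference, dTAG minus control, was below 0 for 31 of the 32 genes, with a median of -0.84 beside 0.16 over all tested genes, and of -1.51 with limma-voom. Scaled by library totals alone, 27 of 32 were below 0 with a median of -0.42, beside 1.20 over all genes. The fitted differences ran from -1.15 (SE 0.84, adjusted p = 0.420) for Nhp2 to 0.15 (SE 0.34, adjusted p = 0.746) for Gar1. The smallest adjusted p in the list was 0.369, for Nop16, at -0.82 (SE 0.51).

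That outcome turned on dTAG replicate 1. Without it, edgeR called 12 of the 32 genes lower and 0 higher (37.5% of the list lower, where 19.8% of 22093 tested genes were lower and 40% higher), and 13222 genes of the whole table. Those 12 were Polr1b, Gnl3, Fbl, Rrp9, Nhp2, Nop10, Wdr75, Nop16, Pes1, Wdr12, Rrp1b and Rrs1, with log2 differences from -2.59 to -1.45 and a smallest adjusted p of 0.00158. Ncl was not among them at -2.35 (SE 2.80, adjusted p = 0.468), and its level in dTAG replicates 2 and 3 was 2125 and 150.6 CPM. The list's median was -1.91 without dTAG replicate 1 and -0.43 without dTAG replicate 3. The 5 libraries of the first of these fits include both shallow ones that hold counts in most receptor genes, and the part of that signal in the 12 calls was not tested.

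Set alone against the 3 controls, dTAG replicate 1 gave no called member either. edgeR called 16 of 18143 genes (0.0882%), 11 higher and 5 lower, and 0 of the 32; this fit assumes that the lone dTAG library varies like the controls. DESeq2, without the filter on low counts, and limma-voom also called 0 of the 32. With an unadjusted p under 0.05 there was 1 member lower, Utp20 (all genes 2.51%), and 0 higher (all genes 3.22%). The fitted log2 differences were above 0 for 17 genes and below 0 for 15, with a median of 0.01, beside -0.02 over all tested genes. Scaled by library totals alone the split was 25 above and 7 below, with a median of 0.09 beside 0.07 over all genes.

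**Figure D2:**
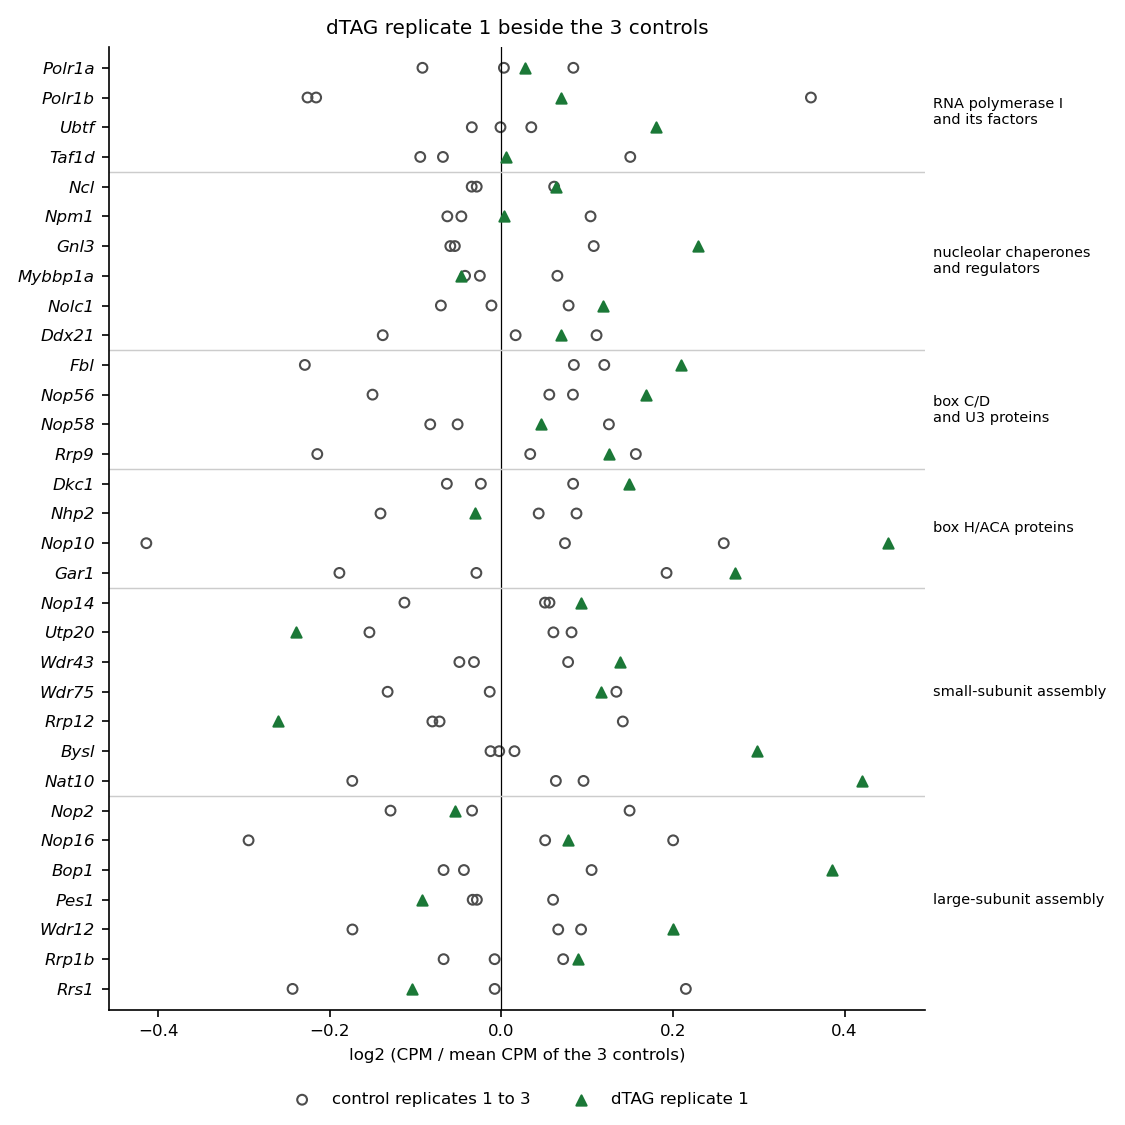
log2 of each gene's CPM over the mean of the 3 controls (horizontal axis), for the controls (open circles) and dTAG replicate 1 (triangles), by role. Nop10, Nat10 and Bop1 lie farthest to the right and Rrp12 and Utp20 farthest to the left, and the controls of Polr1b and Nop10 are the most widely spread.

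By CPM, dTAG replicate 1 lay below every control for 4 of the 32 genes (12.5%), Mybbp1a, Utp20, Rrp12 and Pes1, where 17% of all tested genes did. It lay above every control for 16 genes (50.0%), where 33.8% of all tested genes did. After TMM scaling, which corrects for library composition and was applied to these ranges after the values were seen, it lay below every control for 7 genes (21.9%) and above for 10 (31.2%), where 24.2% and 26.6% of all tested genes did. In dTAG replicate 2 there were 25 genes below every control (all genes 22.4%) and 5 above (all genes 63.4%). In dTAG replicate 3 there were 24 below (all genes 22.4%) and the same 5, Gar1, Rrp12, Bysl, Nat10 and Bop1, above (all genes 72.3%). The shares over all genes include many genes with a lower control level than any member. All 3 dTAG libraries lay below every control for Mybbp1a, Utp20 and Pes1 (all genes 3.22%) and above every control for Gar1, Bysl, Nat10 and Bop1 (all genes 23.9%). The side on which some genes lay depended on the scaling: the 6-library differences of Rrp12, Bysl, Nat10 and Bop1 were -0.38, -0.19, -0.24 and -0.30 with TMM and 0.56, 0.65, 0.47 and 0.38 with library totals alone.

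RNA polymerase I and its factors summed to 817.4, 751.3 and 732.2 CPM in control cells and to 800.2, 576.5 and 261.5 CPM under dTAG. Taf1d, a subunit of the SL1 factor that places the polymerase at the ribosomal DNA promoter, stood at 377.1, 324.2 and 318.3 CPM in control cells (mean 339.9 ± 32.4, SD, n = 3) and at 341.1, 223.8 and 22.6 CPM under dTAG. Its replicate 1 level lay within the control range and its fitted difference there was -0.08 (SE 0.11, adjusted p = 0.991, edgeR). In dTAG replicate 3 it kept 6.66% of the control mean. Polr1a, the largest subunit of the polymerase, stood at 184.7, 195.4 and 172.9 CPM in control cells and at 187.9, 151.5 and 65.1 CPM under dTAG. Ubtf, the HMG-box factor that keeps ribosomal DNA open, stood at 197.1, 192.6 and 202.1 CPM against 223.5, 163.3 and 136.3 CPM. Polr1b, the second largest subunit, had the widest control spread of the list, at 58.4, 39.2 and 38.9 CPM (24.6% coefficient of variation). By CPM its dTAG levels of 47.7, 38.0 and 37.5 were within that spread or just under it. With TMM its fitted difference was -0.71 (SE 0.51) over 6 libraries. It was among the genes called lower without dTAG replicate 1, at -1.58 (SE 0.46).

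The row of the polymerase's own product, the precursor Rn45s, took 11.4%, 16.2% and 14.7% of control counts and 12.1%, 13.7% and 0.604% of those in dTAG replicates 1, 2 and 3. dTAG replicates 1 and 2 lay within the control range and dTAG replicate 3 far under it. The labels describe the libraries as depleted of ribosomal RNA, so this share depends on that step as well.

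The nucleolar chaperones and regulators gave most of the list's counts. Ncl, nucleolin, which binds and chaperones the precursor, stood at 3189, 2995 and 2983 CPM in control cells (mean 3056 ± 115, SD, n = 3) and at 3192, 2125 and 150.6 CPM under dTAG. Its fitted difference in dTAG replicate 1 was -0.02 (SE 0.06, adjusted p = 0.998, edgeR), the smallest standard error of the list. It took 35.1% to 35.7% of member counts in the controls and 35.5%, 34.5% and 9.10% in dTAG replicates 1, 2 and 3. Npm1, nucleophosmin, which carries pre-ribosomal particles and histones, stood at 1596, 1438 and 1422 CPM in the controls against 1488, 903.1 and 36.4 CPM. Its 2.45% of the control mean in dTAG replicate 3 was the lowest share in the list.

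Mybbp1a, a repressor of ribosomal RNA synthesis and partner of Myb, stood at 469.1, 435.4 and 440.6 CPM in control cells and at 433.9, 335.9 and 59.6 CPM under dTAG. Its counting interval in dTAG replicate 1 was 422.6 to 445.4 CPM (exact Poisson, 95%, counting error only), which reaches into the control range. Ddx21, an RNA helicase, stood at 295.7, 248.8 and 277.0 CPM against 287.2, 198.9 and 41.9 CPM. Nolc1, the chaperone of small nucleolar ribonucleoproteins also called Nopp140, stood at 221.0, 199.3 and 207.6 CPM against 227.2, 160.4 and 61.2 CPM. Gnl3, the GTP-binding protein nucleostemin of stem cell nucleoli, stood at 165.8, 148.2 and 147.7 CPM against 180.4, 99.5 and 48.6 CPM. All 6 genes of this group were below every control in dTAG replicates 2 and 3, and together they held 103.3%, 67.9% and 7.08% of their control mean in dTAG replicates 1, 2 and 3.

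Among the box C/D and U3 proteins, Nop56 stood at 327.4, 283.8 and 333.7 CPM in control cells (mean 314.9 ± 27.2, SD, n = 3) and at 353.8, 227.1 and 28.7 CPM under dTAG. Its fitted difference in dTAG replicate 1 was 0.09 (SE 0.11, adjusted p = 0.991, edgeR). Nop58, its paralogue in the same core particle, stood at 302.9, 268.0 and 262.1 CPM against 286.6, 195.2 and 25.9 CPM, so the pair kept 9.11% and 9.34% of their control means in dTAG replicate 3. Fbl, fibrillarin, the methyltransferase of that particle, stood at 43.7, 55.7 and 54.4 CPM against 59.3, 43.2 and 39.7 CPM. Rrp9, a U3 protein, stood at 53.5, 45.0 and 58.3 CPM against 57.0, 35.2 and 46.9 CPM. By CPM, Fbl and Rrp9 kept 77.5% and 89.7% in dTAG replicate 3, so transcripts for 1 class of particle were spread widely there on that scale. In the TMM fit without dTAG replicate 1, Nop56, Nop58, Fbl and Rrp9 stood at -2.27, -2.30, -1.62 and -1.75, and of them Fbl and Rrp9 were called lower. Fbl and Rrp9 had lower control means, 51.3 and 52.3 CPM, and the part of control level in this spread was not tested.

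The box H/ACA genes differed widely from each other in dTAG replicate 3. Dkc1, dyskerin, the pseudouridine synthase, stood at 202.7, 208.4 and 224.5 CPM in control cells (mean 211.9 ± 11.3, SD, n = 3) and at 234.8, 140.3 and 11.0 CPM under dTAG, which is 5.21% of the control mean in dTAG replicate 3. Its fitted difference in dTAG replicate 1 was 0.06 (SE 0.12, adjusted p = 0.992, edgeR). Nhp2, another protein of the box H/ACA particle, stood at 78.1, 66.6 and 75.7 CPM against 71.9, 39.9 and 12.1 CPM.

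Nop10, the small protein that bridges dyskerin and Nhp2, stood at 52.7, 59.9 and 37.5 CPM in control cells (mean 50.0 ± 11.4, SD, n = 3) and at 68.3, 33.3 and 6.07 CPM under dTAG. Its 68.3 CPM lay above every control, and its fitted difference of 0.36 (SE 0.21) was the highest of the list in dTAG replicate 1, with an adjusted p of 0.947 (edgeR). The 6.07 CPM in dTAG replicate 3 rest on 11 counts, the fewest of any member. Gar1, which helps release the product, lay on the other side of the controls by CPM, at 14.8, 11.4 and 12.7 CPM against 15.7, 18.8 and 48.6 CPM, or 374.6% of the control mean in dTAG replicate 3.

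Among small-subunit assembly factors, Wdr43, of the processome that forms on the precursor's leading end, stood at 228.7, 209.5 and 212.0 CPM in control cells (mean 216.7 ± 10.5, SD, n = 3) and at 238.5, 148.2 and 46.4 CPM under dTAG. Its fitted difference in dTAG replicate 1 was 0.06 (SE 0.12, adjusted p = 0.995, edgeR). Utp20, a long scaffold of the same processome, stood at 206.7, 209.8 and 178.2 CPM (mean 198.2 ± 17.4, SD, n = 3) against 168.0, 170.8 and 71.7 CPM. All 3 dTAG libraries were under the lowest control, and the counting interval in dTAG replicate 1, 161.0 to 175.2 CPM, did not reach it. The fitted difference there was -0.32 (SE 0.13) with an unadjusted p of 0.0168 and an adjusted p of 0.690 (edgeR), so the difference did not pass.

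Rrp12, which acts in export of pre-ribosomes, stood at 53.6, 46.3 and 46.0 CPM in the controls (mean 48.6 ± 4.34, SD, n = 3) and at 40.6 CPM in dTAG replicate 1. The fitted difference of -0.34 (SE 0.21, adjusted p = 0.973, edgeR) was the lowest of the list. In dTAG replicates 2 and 3 it stood at 62.9 and 101.0 CPM, above every control by CPM, so on that scale the dTAG libraries lay on both sides of the controls. Nat10, the acetyltransferase of 18S ribosomal RNA, stood at 53.6, 52.5 and 44.5 CPM (mean 50.2 ± 4.97, SD, n = 3) against 67.2, 61.9 and 70.6 CPM. By CPM all 3 dTAG libraries were above every control, which the 6-library TMM fit did not show (-0.24), and the fitted difference in dTAG replicate 1 was 0.34 (SE 0.19, adjusted p = 0.950, edgeR).

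Bysl, bystin, had the narrowest control spread of the list at 37.9, 38.7 and 38.2 CPM (0.981% coefficient of variation) and stood at 47.0, 47.4 and 77.3 CPM in the dTAG libraries, above every control by CPM but at -0.19 in the 6-library TMM fit. Its fitted difference in dTAG replicate 1 was 0.21 (SE 0.22, adjusted p = 0.987, edgeR), with an error that rests on a dispersion shared across genes. Nop14, a processome protein that joins its parts, stood at 176.6, 157.0 and 175.9 CPM against 181.1, 140.3 and 40.8 CPM. Wdr75, another processome protein, stood at 69.9, 63.1 and 58.1 CPM against 69.0, 44.6 and 45.2 CPM. The 7 genes together kept 57.7% of their control mean in dTAG replicate 3 by CPM.

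By CPM, the large-subunit assembly factors held 103.1%, 84.4% and 79.3% of their control mean under dTAG. Their sums were 427.0, 390.0 and 404.7 CPM in control cells and 419.9, 343.9 and 322.8 CPM under dTAG. In the 6-library TMM fit each of these genes was below 0, from -0.97 to -0.30. Nop16, Pes1, Wdr12, Rrp1b and Rrs1 were among the genes called lower without dTAG replicate 1, and Nop2 and Bop1 were not. Pes1, Bop1 and Wdr12 form the PeBoW complex, which matures the large-subunit RNA. Pes1 stood at 95.8, 96.1 and 102.2 CPM (mean 98.0 ± 3.62, SD, n = 3) against 91.9, 72.2 and 48.0 CPM, below every control in each dTAG library, with a fitted difference of -0.18 (SE 0.16, adjusted p = 0.976, edgeR) in dTAG replicate 1. Bop1 stood at 47.7, 43.0 and 42.3 CPM (mean 44.3 ± 2.92, SD, n = 3) against 57.9, 52.1 and 56.8 CPM, above every control in each dTAG library by CPM but at -0.30 in the 6-library TMM fit, with a fitted difference of 0.30 (SE 0.20, adjusted p = 0.973, edgeR). Wdr12 stood at 36.4, 30.8 and 37.0 CPM against 39.9, 19.7 and 25.4 CPM. By CPM the 3 partners of the complex therefore lay on different sides of the controls. In the 6-library TMM fit all 3 were below 0, with Pes1, Bop1 and Wdr12 at -0.97, -0.30 and -0.80. The counting interval of Pes1 in dTAG replicate 1, 86.7 to 97.3 CPM, reached into its control range.

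Rrs1, which loads the 5S ribonucleoprotein, stood at 49.8, 36.2 and 42.7 CPM (mean 42.9 ± 6.78, SD, n = 3) against 39.9, 46.4 and 24.8 CPM, with a fitted difference of -0.18 (SE 0.22, adjusted p = 0.988, edgeR) in dTAG replicate 1. Nop2, a methyltransferase of 28S ribosomal RNA, was by CPM the steadiest across the dTAG libraries, at 95.1, 83.8 and 78.4 CPM against 82.6, 82.1 and 79.5 CPM. With TMM its fitted difference was -0.70 (SE 0.52) over 6 libraries and -1.39 (SE 0.59) without dTAG replicate 1. Nop16, a protein of large-subunit precursors, stood at 31.9, 22.6 and 28.7 CPM against 29.3, 16.4 and 23.7 CPM. Rrp1b, a nucleolar partner of protein phosphatase, stood at 70.4, 77.6 and 73.4 CPM against 78.5, 54.9 and 64.6 CPM.

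In dTAG replicate 3 the genes with more counts in the controls kept less of their level. The log2 ratio of the 32 genes to the control mean had a median of 0.09, -0.43 and -1.25 in dTAG replicates 1, 2 and 3. In dTAG replicate 3 it ran from -5.35 for Npm1 to 1.91 for Gar1, and 17 genes had under 50% of their control mean. Spearman's rho over the 32 genes between control level and this ratio was -0.34, -0.33 and -0.81 in dTAG replicates 1, 2 and 3. Over 8876 tested genes with a control mean of 10 CPM or more it was 0.02, -0.53 and -0.67. These are descriptions across genes of the same libraries; the points share the control means and each library's depth, and CPM is not corrected for gene length. The spread of log2 CPM over the list, an SD of 1.66 to 1.69 in the controls, was 1.63, 1.55 and 0.992 in dTAG replicates 1, 2 and 3.

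**Figure D3:**
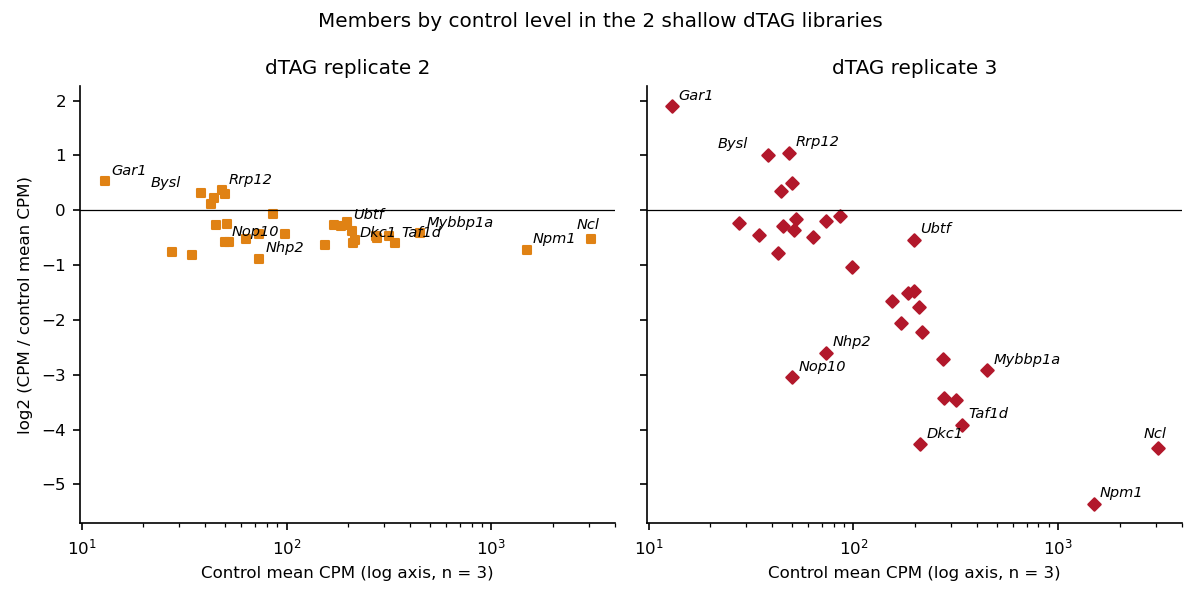
log2 ratio of each gene's CPM to its control mean (vertical axis) against the control mean CPM (horizontal log axis), for dTAG replicate 2 on the left and dTAG replicate 3 on the right; each point is 1 of the 32 genes and the line marks equal levels. Points on the left stay between -0.88 and 0.53, and those on the right descend from Gar1 at 1.91 to Npm1 at -5.35.

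Genes of the same pathway outside the list were set beside it. Of 152 other ribosome biogenesis genes, grouped by the same roles plus RNA decay and trimming, edgeR called 0 in either comparison. In dTAG replicate 1 against the controls, 3 had an unadjusted p under 0.05 on the higher side (the kinase Riok1, the RNase P and MRP subunit Pop7, and the processome protein Utp6) and 3 on the lower side (the nuclear exosome nuclease Exosc10, the nucleolar methyltransferase Rrp8 and the helicase Ddx55), with adjusted p-values from 0.690 to 0.855. The median fitted difference was -0.01. Of these genes 20 lay below every control in dTAG replicate 1 (13.2%) and 53 above (34.9%), where 17% and 33.8% of all tested genes did. Summed, they stood at 105.3%, 84.9% and 60.8% of the control mean in dTAG replicates 1, 2 and 3.

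For the most counted gene of each role in that second list, levels and the edgeR fit of dTAG replicate 1 were as follows. Tcof1, treacle, which links the polymerase to early processing, stood at 173.4, 153.5 and 168.8 CPM in control cells and at 170.7, 151.5 and 163.9 CPM under dTAG, with a fitted difference of -0.04 (SE 0.13, adjusted p = 0.999, edgeR). Ruvbl2, a helper of box C/D assembly, stood at 123.2, 97.2 and 106.1 CPM against 115.8, 88.7 and 33.1 CPM, with a fitted difference of 0.0089 (SE 0.15, adjusted p = 0.999, edgeR). Mdn1, the giant ATPase of large-subunit maturation, stood at 321.3, 294.1 and 284.1 CPM against 312.5, 261.8 and 189.3 CPM, with a fitted difference of -0.02 (SE 0.11, adjusted p = 0.999, edgeR). In dTAG replicate 3 Bms1, the GTPase of the processome, kept 31.95% of its control mean and Xrn2, an exonuclease, 37.6%. Nop53, a large-subunit factor, kept 64.5%, and Naf1, which assembles box H/ACA particles, stood at 174.5%. The fitted differences of Bms1, Xrn2, Nop53 and Naf1 in dTAG replicate 1 were 0.05, -0.14, 0.04 and 0.31, with SEs of 0.13, 0.13, 0.15 and 0.31 and edgeR adjusted p-values from 0.985 to 0.999. By CPM, both lists thus held genes that kept their level and genes that did not.

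The 78 cytosolic ribosomal protein genes, the products' partners in the finished ribosome, stood at 105.1%, 54.3% and 5.28% of the control mean in dTAG replicates 1, 2 and 3, and all 78 were below every control in dTAG replicates 2 and 3. Counts of the 32 genes per ribosomal protein count were 0.240, 0.227 and 0.221 in the controls and 0.227, 0.301 and 0.833 in dTAG replicates 1, 2 and 3. Over the 8876 genes with at least 10 CPM, the median log2 ratio, with 1 CPM added to both levels, was 0.03, -0.04 and 0.13, beside 0.09, -0.43 and -1.23 for the 32 genes and 0.09, -0.94 and -4.10 for the ribosomal protein genes. dTAG replicates 2 and 3 are the libraries with counts in most receptor genes, and the part of that signal in these ratios was not tested.

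**Figure D4:**
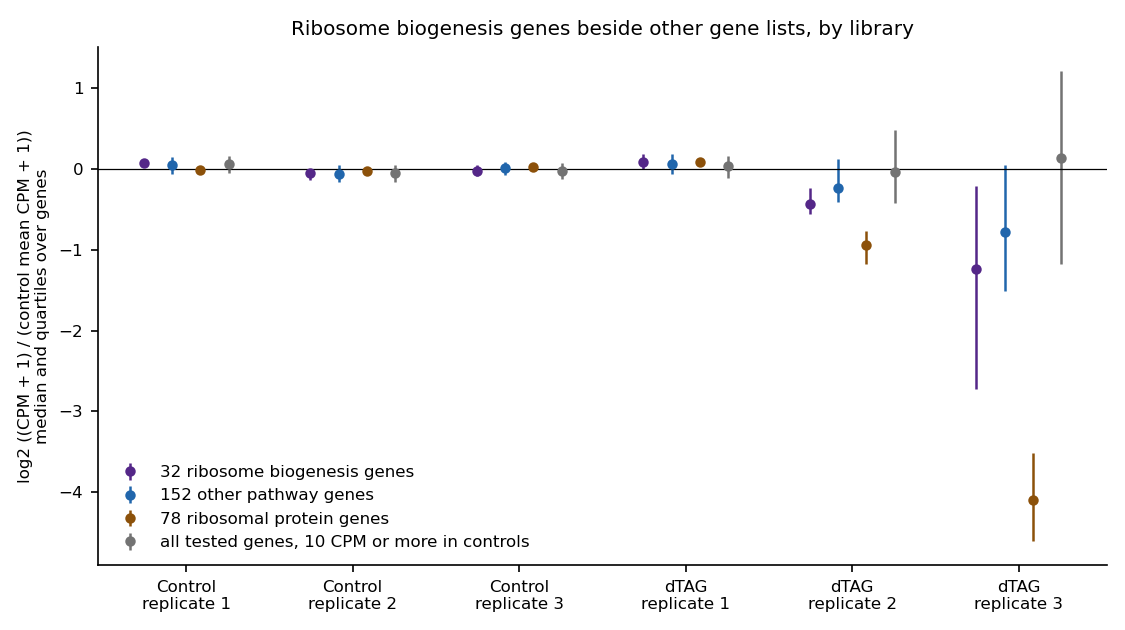
Median (points) and quartiles (bars) over genes of the log2 ratio to the control mean, with 1 CPM added, for the 32 genes, 152 other pathway genes, 78 ribosomal protein genes and all tested genes with a control mean of 10 CPM or more, in each of the 6 libraries. The 4 sets lie together near 0 in the controls and dTAG replicate 1 and apart in dTAG replicate 3, where the medians are -1.23, -0.78, -4.10 and 0.13.

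Promoters of the list were read from RefSeq (GRCm38.p6, from 250 bases before to 50 after the start), where 27 of the 32 genes matched. The canonical E-box CACGTG, which reads the same on both strands, was in a promoter of 5 of the 27 genes (18.5%), in 23 of 127 other pathway genes (18.1%), in 6 of 58 ribosomal protein genes (10.3%), in 10.9% of 13140 tested genes and in 8.09% of all 27025 genes. The ETS motif CCGGAAG, on either strand, was in 4 of the 27 (14.8%; Gar1, Nhp2, Nolc1 and Nop2), in 47.2% of the other pathway genes, 41.4% of the ribosomal protein genes, 16.8% of tested genes and 9.93% of all genes. On either strand, AAGATGG, a core of the YY1 motif, was in 0 of the 27 and in 7.63% of tested genes, and TATAAA, the TATA box, was in 2 of the 27 (7.41%; Dkc1 and Pes1) and in 9.60% of tested genes. A match describes these letters and is not a binding site.

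The 30 bases that hold the E-box are shown for all 5 genes because 3 of them, Mybbp1a, Utp20 and Pes1, are the genes that all 3 dTAG libraries placed below every control by CPM. The choice of the last 4 was made after their values were seen. Capitals mark CACGTG, and each is read on the gene's strand.
Mybbp1a, chr11:72441347-72441376, plus strand: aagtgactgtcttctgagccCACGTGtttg
Utp20, chr10:88826765-88826794, minus strand: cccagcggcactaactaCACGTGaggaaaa
Pes1, chr11:3963965-3963994, plus strand: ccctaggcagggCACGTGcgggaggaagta
Wdr43, chr17:71616220-71616249, plus strand: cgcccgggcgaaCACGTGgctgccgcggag
Nop2, chr6:125131811-125131840, plus strand: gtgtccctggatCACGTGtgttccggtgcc

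The E-box begins at base 41, 38, 3 and 18 of the transcript in Mybbp1a, Utp20, Pes1 and Wdr43, and 60 bases before the start in Nop2. In Nop2 the ETS motif follows, 38 bases before the start, and the 250 bases upstream (chr6:125131633-125131882, plus strand) are shown with both motifs in capitals, since it is the member that holds both.
Nop2: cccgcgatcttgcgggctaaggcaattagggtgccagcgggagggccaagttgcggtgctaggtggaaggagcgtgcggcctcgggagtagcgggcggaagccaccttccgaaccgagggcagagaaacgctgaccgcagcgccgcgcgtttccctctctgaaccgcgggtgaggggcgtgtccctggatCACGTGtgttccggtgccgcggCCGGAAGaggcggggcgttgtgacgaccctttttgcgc

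By CPM, 3 of the 5 members with the E-box were below every control in dTAG replicate 1, against 0 of the 22 matched members without it. Rrp12, the other member below every control there, had no matched promoter and was not searched. The other pathway genes gave 5 of 23 (21.7%) against 10 of 104 (9.62%), and all tested genes gave 17.8% against 17.3%. After TMM scaling these were 4 of 5, Nop2 being the fourth, against 1 of 22, which was Nhp2. Rrp12 and Npm1 were also below every control on that scale and had no matched promoter. The TMM shares were 34.8% against 22.1% in the other pathway genes and 27.7% against 24.3% in all tested genes. The median fitted difference in dTAG replicate 1 was -0.14 against 0.03 in the 27 matched members, -0.03 against -0.01 in the other pathway genes, and -0.03 against -0.01 in all tested genes. Over all tested genes the shares with and without the E-box differed by less than among the members on either scale. In dTAG replicate 1 the counting intervals of Mybbp1a, 422.6 to 445.4 CPM, and Pes1, 86.7 to 97.3 CPM, reached into the control range. The grouping was chosen after the values were seen, and none of the 5 genes passed the test.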

How the data were processed

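RNA-seq counts of 3 control and 3 dTAG libraries were analysed. Their unit is raw read counts per gene, deposited as 1 table. The submitters' processing notes name build mm10, STAR 2.7.2b, featureCounts, limma and edgeR; which step used which, the annotation, and whether counting was by strand are not given in these sources. Per the labels' protocols, ERCC RNA was added, and the libraries were stranded and depleted of ribosomal RNA, although the kit named is for messenger RNA. The 903 rows without a gene symbol, which held 2.20% to 2.37% of counts in the controls and 2.33%, 6.67% and 14.6% in dTAG replicates 1, 2 and 3, were left out.

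CPM are counts per 1000000 counts in named rows. A count of 0 allows up to 3 counts, or from 0.192 to 0.213 CPM in a control library and 0.232, 1.41 and 1.66 CPM under dTAG, in replicate order. Tests used edgeR 4.0.16 (glmQLFit, glmQLFTest, TMM, filterByExpr with a minimum count of 10 and a minimum total of 15), fitted on all genes, with 6 libraries or with dTAG replicate 1 and the 3 controls. Alternatives were DESeq2 1.42.0 (without a filter on low counts), limma-voom (limma 3.58.1), RLE factors, library totals, other filters, a replicate block and leaving out each library. The fitting script was tested on data simulated from the control profile, with the same dispersion for every gene. Those data did not hold the composition of dTAG replicates 2 and 3, so that test checks the code and not the fits to these libraries. Levels were not corrected for length, since gene lengths were not used here. Rankings by CPM, shares of counts and relations between level and ratio across genes therefore depend on length as well.

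Members, gene lists and tests were chosen with earlier results of these data known. All 32 members are named. Full statistics are given for the member of each role with the highest control CPM and for the 3 highest and 3 lowest fitted differences in dTAG replicate 1. In the other pathway list, levels and the fit in dTAG replicate 1 are given for the most counted gene of each role; no gene there passed the test. The remaining values were chosen to show each member. Replicate numbers were checked for pairing: same-numbered control and dTAG libraries had correlations of 0.05, -0.02 and 0.03 between their deviations, so the numbers do not pair them.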

Additional observations from a re-analysis of the deposited data

Results flagged for a closer look

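Rows without a gene symbol were used in no comparison. They took 6.67% of all counts in dTAG replicate 2 and 14.6% in dTAG replicate 3, above the 2.20% to 2.37% in the controls and the 2.33% in dTAG replicate 1. The same 2 libraries held counts in 71.5% and 97.0% of the olfactory and vomeronasal receptor genes and had the lowest summed levels of the ribosome biogenesis genes. What these rows are, and their part in those levels, was not tested.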

How the results depend on the processing

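Of the 6-library comparison, the count of genes called was 0 by edgeR and moved to 1398 without a filter on low counts (all higher), to 5196 with DESeq2 run without a filter (25649 genes tested) and to 13 with the replicate block (all higher), whose numbers do not pair the libraries; leaving out 1 library at a time gave 0 to 13222, the highest without dTAG replicate 1. Members called were 0 under every alternative except those leave-outs, which gave 0 to 12, and their median was -1.91 to -0.43 over the leave-outs, -1.30 with the block and -1.51 with limma-voom. In dTAG replicate 1 against the controls, genes called were 16 and became 41 without a filter, 5 with limma-voom and 20 to 60 when a control was left out (60 without control replicate 1, 28 without control replicate 2), with 0 members called under each; the members' median became 0.091 with library totals. The cause of each was not tested, beyond the larger number of genes tested without a filter (25668 and 23058).

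Single members whose sign turned were not called under those settings. In the 6-library fit, library totals gave Bop1 0.38, Bysl 0.65, Nat10 0.47 and Rrp12 0.56, and no filter gave Gar1 -0.028. In dTAG replicate 1 against the controls, library totals gave Ddx21 0.070, Ncl 0.064, Nop16 0.079, Nop58 0.046, Npm1 0.0035, Polr1a 0.028, Polr1b 0.070 and Taf1d 0.0057. RLE factors gave Nop16 0.0079 and Polr1b 0.00090, limma-voom gave them 0.012 and 0.010, and DESeq2 gave Nop16 0.0063. The 1 CPM filter gave Nop14 -0.0041 and Rrp1b -0.011, and no filter gave Rrp1b -0.0059. With 1 library left out, Gar1 ran from -0.17 to 0.18 and Nat10 from -0.95 to 0.040 in the 6-library fit. Against the controls alone, with 1 control left out, Ddx21 ran from -0.055 to 0.015, Fbl from -0.0072 to 0.21, Nop14 from -0.022 to 0.046 and Nop16 from -0.11 to 0.079. Likewise Polr1a ran from -0.093 to 0.012, Polr1b from -0.097 to 0.18, Rrp1b from -0.058 to 0.065, Rrp9 from -0.033 to 0.14 and Wdr75 from -0.019 to 0.073. The list's summed level moved by less than the control SD when ribosomal RNA and mitochondrial rows were left out of the totals (100.8%, 68.7% and 14.7% of the control mean). Depth limits dTAG replicates 2 and 3, where members had as few as 35 and 11 counts.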

Other observations

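Several members carry small nucleolar RNA genes inside their introns or span, a known arrangement by which the same transcript serves the pathway both as messenger and as the source of guide RNAs. By RefSeq (GRCm38.p6) these were 7 members, Taf1d, Ncl, Gnl3, Nop56, Nop58, Dkc1 and Wdr43, with 24 small nucleolar RNA genes, of which 10 had a row in the table. Their median log2 ratio to the control mean was 0.14, -0.55 and -3.46 in the dTAG libraries, in replicate order, beside 0.09, -0.28 and -0.49 in the other members. The 7 had control means from 153.9 CPM (Gnl3) to 3056 CPM (Ncl), and in dTAG replicate 3 the ratio fell with control level (rho -0.81). Of the other members, Npm1 (1485 CPM) stood at -5.35 there, Mybbp1a (448.4 CPM) at -2.91 and Ubtf (197.3 CPM) at -0.53. The part of control level in this difference was not tested. Snord82, inside Ncl, stood at 21.6, 24.9 and 28.4 CPM in control cells and at 30.9, 11.7 and 0.552 CPM under dTAG, the last resting on 1 count. Snord57, inside Nop56, stood at 12.9, 12.3 and 15.8 CPM against 17.04, 8.91 and 0.552 CPM, the last again from 1 count. Both were chosen after their values were seen. Of the 10 rows, 2 lay below every control and 2 above in dTAG replicate 1 (all genes 17% and 33.8%). In dTAG replicate 2 there were 5 below and 2 above (all genes 22.4% and 63.4%). In dTAG replicate 3 there were 10 below (all genes 22.4%), where 6 were at 0 and none had over 2 counts. A count of 0 there allows up to 1.66 CPM, and Snord69, Snord92 and Snord53 had control means under that. Depth therefore cannot resolve whether Snord69, Snord92 and Snord53 lay below the controls in that library. The same holds for Snord19, whose counting interval (exact Poisson, 95%) reached 3.07 CPM, above its lowest control of 1.99 CPM. For Snora75, Snord82, Snord110, Snord57, Snord70 and Snord11 the upper end of that interval lay under the lowest control. The 2 above in dTAG replicate 2 were Snord69, at 306.0% of the control mean from 8 counts, and Snord70, at 136.0% from 11 counts; Snord69 was at 18.95% in dTAG replicate 1, from 3 counts.

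The spans of 10 members overlap another protein-coding gene, among them Bysl with Ccnd3, Nat10 with Caprin1 and Bop1 with Mroh1 and Scx. Whether counting used the strand is not given in the sources used here, so reads from bases that such a pair shares might not be told apart. The overlap is of whole spans, introns included, and shared exons were not looked for. The 10 had median log2 ratios of 0.18, -0.53 and -2.13 in dTAG replicates 1, 2 and 3, beside 0.07, -0.41 and -0.91 in the other 22.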
